A study of Oryza sativa with 12 samples.

Results

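The triple mutant phr123 was compared with wild-type rice in phosphate-starved shoots, on the 3 arrays titled phr123 triple mutant and the 3 titled wild-type Nipponbare, which make 6 of the 12 arrays of the study. By its title phr123 carries mutations in PHR1, PHR2 and PHR3 together. The wild type (WT) is the cultivar Nipponbare, and the labels name no parent cultivar, allele or line for the mutants. The other 6 arrays hold the single mutants phr1 and phr3, with 3 arrays each, and serve here only for the spread between replicates and for levels set beside those of phr123. All plants, WT included, grew in hydroponic solution with 200 µM phosphate for 14 days and then without phosphate (0 µM) for 7 days, so every difference below is one between starved plants. The labels state 3 biological repeats, call the tissue leaf in one field and shoot in another, and do not say how many plants an RNA came from. Phosphate-fed plants and single mutants of PHR2 were not analysed here.

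The 3 PHR proteins belong to the MYB family of transcription factors and bind promoters of phosphate starvation genes and switch them on when phosphate is short. SPX proteins, which bind inositol pyrophosphates when phosphate is plentiful, hold PHR factors back, and the SPX genes are themselves among the targets, so the pathway carries its own brake. Further known targets encode phosphate transporters of the PHT1 family and the galactolipid synthases that let starved plants replace membrane phospholipids.

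The values are MAS5 signals, which are linear intensities scaled to the same trimmed mean on each array, and a log2 change below is always phr123 minus WT in log2 signal. A change was called where limma's adjusted p, corrected over the 28597 probe sets tested, was under 0.05. The first principal component of all 12 arrays held 49.4% of the variance and set the 3 phr123 arrays (127.9 to 131.6) apart from the 9 others (-49.2 to -33.5). Log2 signals of arrays correlated across probe sets with r from 0.949 to 0.963 within phr123, 0.961 to 0.962 within WT and 0.858 to 0.865 between them. The array labelled phr123 replicate 1 stood apart on a small set of genes. On 39 of 13324 bright probe sets it lay over 4-fold from both other phr123 arrays while those 2 lay within 2-fold of each other, and the same count was 0 for each of these 2, 0 for WT replicates 1 and 2, and 1 for WT replicate 3. It was the higher array on 18 of the 39 and the lower on 21. Across the phr123 arrays 1 to 3, LOC4326189 gave 2.0, 8775.5 and 8642.2, the heat shock gene HSP26.7 gave 4115.9, 203.1 and 252.5, and LOC4340879 gave 134.2, 3027.1 and 3451.8, genes chosen after their values were seen. The log2 ratio of 3' to 5' probe sets, a sign of RNA quality, averaged 2.35 ± 0.144 for Gapdh on the WT arrays and 1.69 ± 0.135 on the phr123 arrays (SD, n = 3, exact two-sided permutation p = 0.1, which no split of 3 and 3 arrays can go below). For actin and ubiquitin it was 2.37 against 2.15 and -0.48 against -0.56 (exact permutation p = 0.2 and 0.6). The part of RNA quality in the results was not tested.

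The targeted genes were read first. PHR2 had signals of 1750.2, 2031.1 and 1814.5 in WT and 18.3, 43.8 and 24.3 in phr123. All 3 phr123 arrays lay at or below the reporter level, the 95th percentile of control probe sets for marker genes from other organisms, and PHR2 was at least 28.7-fold lower (adjusted p = 3.21e-10), and by its dimmer probe set the fall was at least 9.67-fold. PHR1 had 876.9, 1096.2 and 1153.8 in WT and 569.1, 753.0 and 810.6 in phr123, so the groups did not overlap, and its log2 change was -0.56 (SE 0.159, adjusted p = 0.0116). That call ended without phr123 replicate 1 (adjusted p = 0.0561), without WT replicate 3 (0.0545) and with arrays centred on their medians (0.0802). PHR3 had 462.4, 469.1 and 386.7 in WT and 1186.6, 172.6 and 118.3 in phr123. The array labelled phr123 replicate 1 was thus the brightest of the 6 for PHR3, against its label, while the other 2 phr123 arrays lay below all WT arrays. The log2 change was -0.60 (SE 0.603, adjusted p = 0.469) and -1.62 without that array (adjusted p = 0.000449). In the single mutant phr3 the same probe set gave 57.7, 118.9 and 94.5, below all WT arrays (log2 change -2.34 against WT, adjusted p = 0.0713). PHR3 was thus low on the phr3 arrays and on phr123 replicates 2 and 3, but not on phr123 replicate 1. Why that array differed was not tested. The labels do not give the disrupted part of each PHR gene, and probes that lie elsewhere in the gene are no check of the label.

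The difference between phr123 and WT reached 41.5% of the probe sets tested and went both ways to about the same extent. Of 28597 probe sets, 5870 were higher in phr123 (20.5%) and 6012 were lower (21.0%), and 13850 had an unadjusted p under 0.05. Changes of at least 2-fold were called for 1953 that rose and 2900 that fell (6.83% and 10.1%), of at least 8-fold for 268 and 438, and of at least 64-fold for 13 and 53. The larger classes thus held more falls than rises. The 3 WT and 3 phr123 arrays did not overlap on 53.7% of the probe sets. Counted once per gene, by the brightest probe set, 51.0% of 15469 genes were called, 3979 rose (25.7%) and 3910 fell (25.3%), and among the 2168 genes with a symbol 582 rose (26.8%) and 640 fell (29.5%). These gene shares are the background against which the counts of gene groups below are read. For scale, 267 probe sets (0.934%) were called in phr1 against WT, 0.448% higher and 0.486% lower, and 569 (1.99%) in phr3 against WT, 1.26% higher and 0.731% lower, while phr123 differed from phr1 on 12245 (42.8%) and from phr3 on 11714 (41.0%).

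The lean of bright probe sets turned with the group used to sort them. Of the 918 with a mean WT signal of 10000 or more, 521 fell (56.8%) and 96 rose, with a median log2 change of -0.33 against 0.02 over all probe sets. Between 3000 and 10000 in WT, 1019 of 2518 fell and 555 rose, and between 1000 and 3000 the counts were 1556 and 1567. Sorted by the mean signal in phr123, 275 of the 846 at 10000 or more rose and 262 fell, 1054 of 2676 between 3000 and 10000 rose and 660 fell, and 2108 of 5543 between 1000 and 3000 rose and 1119 fell. Complete switches were rare. Of 6358 genes with a signal of 1000 or more on all 3 WT arrays, 11 lay at or below the reporter level on all 3 phr123 arrays, and 3 of 6499 did the reverse.

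**Figure D1:**
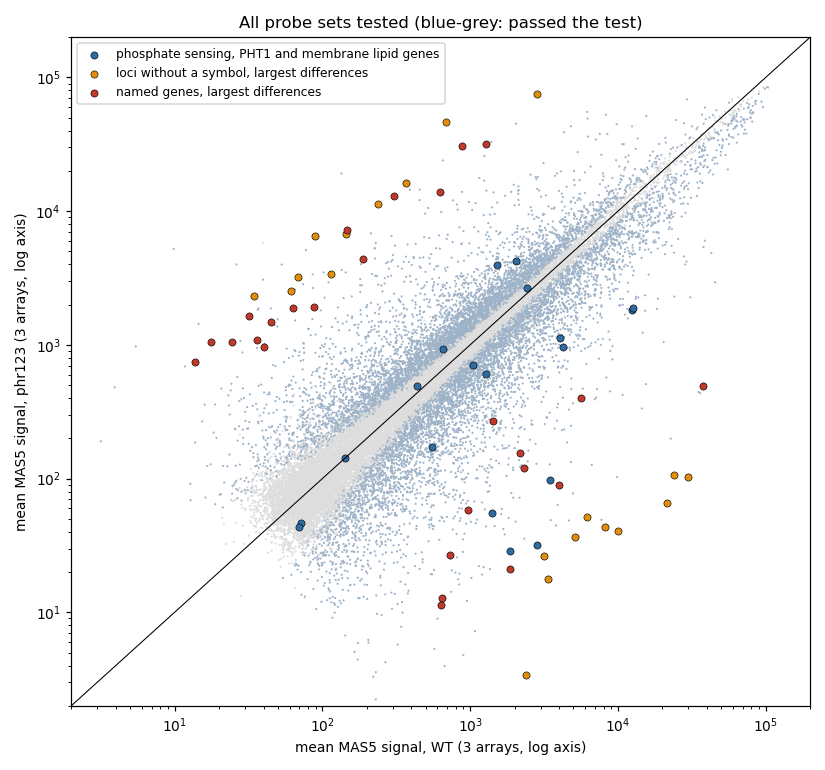
Mean MAS5 signal in WT (x, log axis) against phr123 (y, log axis) for the 28597 probe sets tested, 1 point each, with blue-grey for the 11882 called; the black line marks equal signal. Phosphate genes, the named genes with the largest differences and the loci without a symbol are coloured, and the coloured loci lie far from the line on both sides.

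Genes of phosphate sensing and signalling fell together. Of the 10 measured members of that list, PHR genes included, 8 fell and 1 rose, with a median log2 change of -2.20 (background shares 26.8% higher and 29.5% lower). Among the 8 are PHR1 and PHR2, which are themselves mutated in phr123 and so say nothing of the pathway. The others that fell were SPX1, SPX2, SPX3, SPX5, PHO1;2 and PHO1;3. In whole shoots, fewer cells of a type and less RNA per cell cannot be told apart, here and in all that follows. SPX1, which encodes one of the SPX proteins that hold PHR2 back, had 12831.5, 12048.7 and 12432.0 in WT and 1939.9, 1783.9 and 1790.1 in phr123, a log2 change of -2.76 (SE 0.0735, adjusted p = 9.50e-12). SPX2, its close relative, had 14335.0, 12261.6 and 11642.8 in WT and 2085.3, 1623.5 and 1960.3 in phr123, a log2 change of -2.76 (SE 0.118, adjusted p = 8.17e-10). SPX1 was thus 6.77-fold and SPX2 6.76-fold lower, with the 3 phr123 arrays of each close together. SPX3 had 1762.6, 1213.6 and 1265.0 in WT and 57.0, 34.3 and 75.7 in phr123, a log2 change of -4.72 (SE 0.275, adjusted p = 1.27e-08), with 1 phr123 array at or below the reporter level. SPX5 had 3089.5, 2631.7 and 2757.4 in WT and 4.9, 45.7 and 44.8 in phr123, at least 43.5-fold lower (adjusted p = 4.33e-07), and its second probe set was at least 28.5-fold lower. For these 4 genes no phr123 array came near a WT array.

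SPX4 was the member that went up. It encodes the SPX protein that keeps PHR2 in the cytosol, and its signals were 628.6, 701.2 and 621.3 in WT and 789.9, 937.7 and 1080.2 in phr123. The log2 change was 0.52 (SE 0.170, adjusted p = 0.025), but its second probe set gave -0.29 and did not pass, and leaving out any of WT replicates 1 and 3 and phr123 replicates 2 and 3 ended the call (0.0622 to 0.108 as adjusted p). PHO1;2, the exporter that loads phosphate into the xylem, had 1161.2, 1513.5 and 1160.2 in WT and 580.9, 610.1 and 626.1 in phr123, a log2 change of -1.07 (SE 0.181, adjusted p = 0.000278), while its second probe set gave 0.02 and did not pass. PHO1;3, of the same family, had 458.0, 743.8 and 452.7 in WT and 189.2, 168.5 and 159.5 in phr123, a log2 change of -1.64 (SE 0.225, adjusted p = 4.33e-05).

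The phosphate transporters split. Of 9 PHT1 genes matched on the array, 6 were bright enough to be tested, of which 2 rose and 1 fell. Pht1;4, a starvation-responsive uptake transporter, had 4266.6, 3692.3 and 4266.1 in WT and 1062.4, 1197.2 and 1091.8 in phr123, a log2 change of -1.87 (SE 0.112, adjusted p = 1.65e-08). Pht1;8 went the other way, with 2045.3, 1935.1 and 2107.7 in WT and 4116.1, 4173.3 and 4382.8 in phr123 and a log2 change of 1.06 (SE 0.0958, adjusted p = 8.04e-07). Pht1;1 had 1406.7, 1534.6 and 1617.7 in WT and 3486.8, 4242.8 and 4191.2 in phr123, a log2 change of 1.38 (SE 0.119, adjusted p = 4.95e-07), yet its dimmer probe set fell by 2.70 on the log2 scale and passed the test too, so its direction is unsettled. Pht1;2, Pht1;3 and Pht1;12 had WT means from 69.7 to 142.0, near the reporter level, and log2 changes from -0.72 to 0.37 that did not pass, and the other 3 PHT1 genes lay under the filter on low signals.

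Of the 3 measured galactolipid synthase genes, 2 fell. MGD2, which makes galactolipid that can stand in for phospholipid, had 3263.4, 3510.1 and 3587.3 in WT and 105.6, 105.4 and 80.7 in phr123, a log2 change of -5.16 (SE 0.141, adjusted p = 1.14e-11) and a 35.8-fold lower level. MGD3, of the same starvation-responsive type, had 4031.5, 4447.9 and 4253.1 in WT and 940.8, 991.2 and 940.5 in phr123, a log2 change of -2.15 (SE 0.0900, adjusted p = 7.31e-10). MGD1, which makes the bulk of chloroplast galactolipid, had 2196.3, 2608.8 and 2437.5 in WT and 2697.7, 2588.9 and 2639.0 in phr123, and its log2 change of 0.13 did not pass (adjusted p = 0.353). In the list of carbon steps that spare phosphate, with 3 measured genes, AOX1 rose and PPDKB fell. AOX1, the alternative oxidase of mitochondria, had 1705.2, 1957.6 and 1509.7 in WT and 16173.6, 11505.2 and 11436.6 in phr123, a log2 change of 2.91 (SE 0.128, adjusted p = 1.13e-09). PPDKB, a pyruvate phosphate dikinase, had 10335.1, 10792.3 and 9598.0 in WT and 5096.8, 5930.1 and 5731.4 in phr123, a log2 change of -0.88 (SE 0.0840, adjusted p = 1.41e-06).

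**Figure D2:**
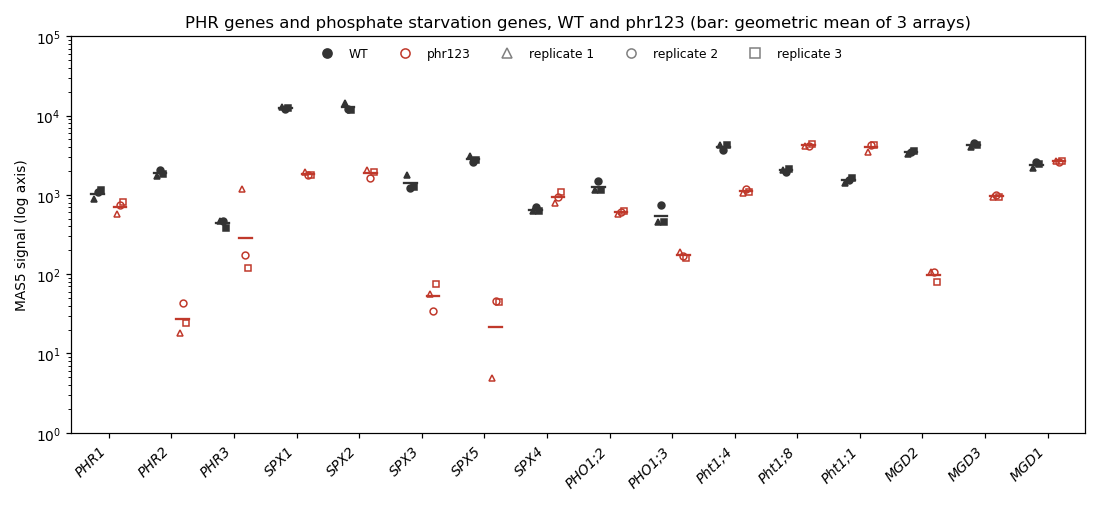
MAS5 signal (log axis) of the PHR genes and of phosphate starvation genes on the 3 WT arrays (filled black) and the 3 phr123 arrays (open red), with triangles, circles and squares for replicates 1, 2 and 3 and bars for geometric means; where a gene has several probe sets the one brightest in WT is shown. SPX1, SPX2, SPX3, SPX5, MGD2 and MGD3 lie far below WT on all phr123 arrays, Pht1;8 lies above, and PHR3 splits on the array labelled replicate 1.

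The single mutants were set beside phr123 for the same genes; the comparisons share the WT arrays, so each mutant's own values are given. SPX1 had a log2 change of -0.54 (adjusted p = 0.00212) in phr1 and -0.08 (adjusted p = 0.741) in phr3, and phr123 was lower than phr1 by a log2 difference of -2.22 (adjusted p = 9.82e-11). MGD2 had -0.70 (adjusted p = 0.0321) in phr1 and -0.36 (adjusted p = 0.288) in phr3, with a log2 difference of -4.46 between phr123 and phr1 (adjusted p = 7.02e-11). Pht1;8 fell in phr1, by a log2 change of -0.53 (adjusted p = 0.0163), and rose in phr123, and these 2 mutants differed by 1.59 (adjusted p = 1.79e-08). SPX3 was called in both single mutants, with -1.67 (adjusted p = 0.00897) in phr1 and -1.18 (adjusted p = 0.044) in phr3, and phr123 was lower than either, by -3.05 (adjusted p = 8.07e-07) and -3.54 (adjusted p = 2.10e-07). In phr1, Pht1;4 had -0.72 (adjusted p = 0.0059) and MGD3 had -0.57 (adjusted p = 0.00653), while in phr3 their values were -0.34 (adjusted p = 0.189) and -0.00 (adjusted p = 0.998). SPX2 was low in phr1 as well. It had 1966.6, 2058.5 and 1952.6 in phr1, a log2 change of -2.67 (adjusted p = 4.81e-08), close to its level in phr123, and the difference between the 2 mutants was -0.08 (adjusted p = 0.605). PHR1 was higher in phr123 than in phr1, by 0.53 (adjusted p = 0.0159).

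Genes of jasmonate, the hormone that governs responses to wounding and insects, were mostly higher in phr123. Of 32 tested, 21 rose and 2 fell (20 and 1 without phr123 replicate 1), with a median log2 change of 1.24, against shares of 26.8% and 29.5% over all genes with a symbol. Their summed signal was 65669 to 68439 in WT and 137809 to 148108 in phr123. Among JAZ genes, which encode the repressors that jasmonate removes and that jasmonate also induces, 11 of 12 rose and 0 fell (median 2.43). JAZ9 had 52.1, 115.9 and 96.9 in WT and 2550.9, 1555.9 and 1663.6 in phr123, a log2 change of 4.49 (SE 0.498, adjusted p = 5.93e-06), and JAZ8 had 1040.6, 779.2 and 722.6 in WT and 6499.1, 8445.2 and 7778.1 in phr123, a log2 change of 3.17 (SE 0.175, adjusted p = 7.90e-09). JAZ6, brighter in WT, had 2742.9, 2941.7 and 2763.3 in WT and 8402.1, 9578.9 and 9207.0 in phr123, a log2 change of 1.68 (SE 0.109, adjusted p = 3.09e-08). Genes for jasmonate synthesis, counted after their values were seen, rose in part. Of 5 lipoxygenase genes 3 rose, of 2 AOS genes both, the single allene oxide cyclase gene aoc rose, of 4 OPR genes 3 rose, and none of these fell. The lipoxygenase gene LOX9 had 163.2, 154.9 and 251.4 in WT and 4938.7, 4201.8 and 4108.1 in phr123, a log2 change of 4.57 (SE 0.234, adjusted p = 3.83e-09), and LOX2.1 had 641.0, 393.6 and 555.4 in WT and 4409.1, 4234.5 and 4721.3 in phr123, a log2 change of 3.10 (SE 0.172, adjusted p = 8.13e-09). Of the 2 loci named AOS, for allene oxide synthase, LOC4332121 had 212.1, 167.6 and 171.8 in WT and 1970.7, 1324.7 and 1163.8 in phr123, a log2 change of 2.99 (SE 0.226, adjusted p = 1.43e-07). LOX1.1 lay at or below the reporter level on all WT arrays, with 30.6 to 34.0, and gave 1531.9, 1771.9 and 1654.7 in phr123, at least 29.9-fold higher (adjusted p = 1.88e-05). It was dim in phr1 and phr3 too and passed the filter on mean signal only through phr123.

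Genes for defence proteins were higher too. Of 11 tested genes for chitinases, which cut fungal cell walls, and pathogenesis-related proteins, 10 rose and 0 fell (median 1.68), and of the 9 CHT genes 8 rose and 0 fell. The summed signal of the list was 29443 to 32698 in WT and 98889.8 to 101740.0 in phr123. Cht2 had 1364.1, 1003.8 and 1098.0 in WT and 19374.2, 17370.0 and 16422.0 in phr123, a log2 change of 3.95 (SE 0.205, adjusted p = 4.36e-09), and Cht3 had 206.5, 241.9 and 262.6 in WT and 1314.0, 2315.4 and 2389.2 in phr123, a log2 change of 3.04 (SE 0.215, adjusted p = 7.58e-08). PBZ1, a pathogenesis-related protein gene that was already bright in WT, had 16027.4, 15425.3 and 15280.4 in WT and 47543.7, 53546.7 and 53059.7 in phr123, a log2 change of 1.72 (SE 0.129, adjusted p = 1.30e-07). Of 6 WRKY factors tested, 5 rose and 0 fell (median 2.28). WRKY62 had 416.9, 185.6 and 298.9 in WT and 4570.3, 4800.4 and 4730.4 in phr123, a log2 change of 4.04 (SE 0.236, adjusted p = 1.29e-08), and WRKY76 had 1222.1, 971.6 and 1179.5 in WT and 5370.5, 4447.9 and 4426.1 in phr123, a log2 change of 2.08 (SE 0.317, adjusted p = 0.000111). Of 6 NAC factors 4 rose and 0 fell, among them NAC068 with 441.6, 471.3 and 470.2 in WT and 1379.0, 1642.0 and 1578.3 in phr123, a log2 change of 1.73 (SE 0.148, adjusted p = 4.60e-07).

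Genes for terpenoid synthesis, a list that holds the enzymes of the rice diterpenoid phytoalexins, rose in 11 of 16 cases and fell in 1 (median 1.36). KSL7, CPS4 and MAS, given below, were dim in WT, phr1 and phr3 and passed the filter on mean signal only through phr123. For such genes a rise was a condition of being tested, so counts that hold them lean to rises. Of 24 cytochrome P450 genes, some of which act in the same pathways, 13 rose and 6 fell (median 0.69). KSL7, which makes the precursor of the phytocassanes, had signals from 4.1 to 27.4 in WT and 649.9, 818.6 and 778.9 in phr123, at least 13.5-fold higher (adjusted p = 0.000208). CYP71Z7, a P450 of phytocassane synthesis, had 136.7, 318.3 and 461.5 in WT and 12873.6, 13205.6 and 13199.5 in phr123, a log2 change of 5.59 (SE 0.362, adjusted p = 3.24e-08). CPS4, the diterpene cyclase of momilactone synthesis, had 7.1, 20.1 and 45.7 in WT and 1099.8, 1030.8 and 1020.7 in phr123, at least 19.0-fold higher (adjusted p = 0.000214). MAS, a momilactone A synthase gene, had 50.0, 27.9 and 30.1 in WT and 1562.8, 855.5 and 829.7 in phr123, at least 18.8-fold higher (adjusted p = 3.88e-05). LIS, named for linalool synthase, had 111.0, 172.6 and 159.9 in WT and 6495.3, 7847.7 and 7480.4 in phr123, a log2 change of 5.64 (SE 1.07, adjusted p = 0.000668). HMG3, an HMG-CoA reductase gene, was the member that fell, with 1505.3, 1562.2 and 1281.7 in WT and 335.0, 177.9 and 185.5 in phr123 and a log2 change of -2.70 (SE 0.203, adjusted p = 1.33e-07). Transporters of the ABCG type, which export lipids and specialised metabolites, rose in 5 of 9 cases and fell in 1. ABCG36 had 232.7, 191.4 and 259.8 in WT and 3060.5, 3630.4 and 3157.7 in phr123, a log2 change of 3.86 (SE 0.195, adjusted p = 3.47e-09); its second probe set gave 2.95 and did not pass. ABCG37 had 145.2, 141.5 and 213.5 in WT and 1628.1, 1284.9 and 1314.2 in phr123, a log2 change of 3.10 (SE 0.285, adjusted p = 9.52e-07).

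Phenylpropanoid and lignin genes moved both ways, with 7 of 25 higher and 10 lower. PAL06, a phenylalanine ammonia-lyase gene at the entry of the pathway, had 2907.4, 2564.1 and 2225.2 in WT and 20126.6, 17563.9 and 18595.3 in phr123, a log2 change of 2.88 (SE 0.111, adjusted p = 3.44e-10), and 4CL5, which activates coumarate, had 531.6, 597.5 and 690.8 in WT and 3045.9, 2725.1 and 2752.2 in phr123, a log2 change of 2.23 (SE 0.135, adjusted p = 1.74e-08). The laccases, oxidases that act on lignin units, split. LAC19 had 50.0, 40.6 and 29.9 in WT and 852.8, 1096.8 and 953.7 in phr123, at least 17.4-fold higher (adjusted p = 0.00307). It too passed the filter on mean signal only through phr123. The neighbour of LAC19 by name, LAC20, had 2357.4, 1752.0 and 2379.4 in WT and 82.5, 199.5 and 188.2 in phr123, a log2 change of -3.88 (SE 0.294, adjusted p = 1.45e-07). LAC4 had 1444.8, 1177.2 and 1354.2 in WT and 363.3, 355.1 and 301.5 in phr123, a log2 change of -1.96 (SE 0.160, adjusted p = 2.80e-07).

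Photosynthesis genes were lower, by small amounts. Of 10 light reaction genes 7 fell and 2 rose (median -0.37; 5 and 2 without phr123 replicate 1), of 10 genes of carbon fixation and photorespiration 9 fell and 1 rose (median -0.66), and of 10 genes of chlorophyll metabolism 7 fell and 2 rose (median -0.81). The share of genes with a symbol that fell was 29.5%, a share that does not allow for brightness. Of all probe sets with a mean WT signal of 10000 or more, 56.8% fell, with a median log2 change of -0.33. The light reaction median lay near that value, and the other medians lay below it. Photosynthesis genes and the leaf markers below were not set against genes of like brightness, so a fall particular to them is not shown. PSAH, a photosystem I subunit gene, had 70495.9, 78642.9 and 73009.9 in WT and 35845.6, 39024.5 and 39211.7 in phr123, a log2 change of -0.96 (SE 0.0768, adjusted p = 2.39e-07). Of 2 loci named FNR, for ferredoxin-NADP reductase, LOC4342399 rose and the other did not pass; the former had 3052.2, 2940.5 and 2791.3 in WT and 5251.1, 4772.3 and 4635.1 in phr123, a log2 change of 0.74 (SE 0.0948, adjusted p = 2.35e-05). FBPase had 14977.4, 13832.0 and 13673.6 in WT and 5509.3, 6165.1 and 5791.8 in phr123, a log2 change of -1.28 (SE 0.0887, adjusted p = 6.23e-08). GLO3, a glycolate oxidase gene, had 5106.3, 5070.5 and 5368.0 in WT and 2373.3, 1280.2 and 1288.9 in phr123, a log2 change of -1.72 (SE 0.190, adjusted p = 5.91e-06). PORA and PORB, which reduce protochlorophyllide, had log2 changes of -1.55 (SE 0.148, adjusted p = 1.36e-06) and -1.16 (SE 0.112, adjusted p = 1.56e-06). rbcS had 71698.8, 72231.5 and 72129.8 in WT and 41319.0, 50770.3 and 46112.1 in phr123, a log2 change of -0.65 (SE 0.108, adjusted p = 0.000239) that was -0.39 under quantile normalization. The same setting took petC from -0.49 to -0.29 and ended the calls of LHCP, a light-harvesting protein gene (-0.44 to -0.12, adjusted p = 0.117), and of the leaf marker rcaA1 (-0.37 to -0.06, adjusted p = 0.512).

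The leaf markers, which are largely the same light reaction genes, fell in 5 of 6 cases and rose in 1, and their summed signal was 427910.0 to 434042 in WT and 287436 to 336625 in phr123. Of 5 root markers on the array 2 were bright enough to be tested, neither Lsi1 nor IRT1 passed, and their summed signal was 969 to 1263 in WT and 998 to 1339 in phr123. Of 8 pollen and panicle markers 2 were bright enough, with a summed signal of 517 to 697 in WT and 593 to 675 in phr123. Of these, GAMYB did not pass and MADS1 was called, with 8.7, 11.7 and 43.2 in WT and 65.6, 66.9 and 49.8 in phr123, of which all WT and 2 phr123 values lay at or below the reporter level; its call (adjusted p = 0.0368) ended with the 6 arrays alone (0.126) and without phr123 replicate 1 (0.0920). The summed leaf signal was lower on every phr123 array than on any WT array, while the ranges of the root and the pollen and panicle sums overlapped. Signals of different probe sets are not comparable, so these sums are read only between arrays. The part of tissue make-up in the other results was not tested.

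Sugar and starch genes fell more often than they rose. Of 38 tested, 20 fell and 6 rose (median -0.33). The sucrose synthase gene SUS1 had 9842.7, 12921.9 and 12249.0 in WT and 2094.7, 1330.5 and 1309.9 in phr123, a log2 change of -2.91 (SE 0.157, adjusted p = 6.12e-09), while SUS4 had 541.6, 593.8 and 635.3 in WT and 1903.0, 1626.4 and 1415.4 in phr123, a log2 change of 1.47 (SE 0.134, adjusted p = 8.26e-07). AGPS2, a subunit of the enzyme that feeds starch synthesis, had 9897.4, 10906.2 and 11758.9 in WT and 4611.4, 4300.5 and 4042.0 in phr123, a log2 change of -1.33 (SE 0.0939, adjusted p = 7.61e-08). Among the SWEET sugar exporters, 5 of 9 fell and 1 rose. SWEET11 had 598.6, 1144.0 and 890.1 in WT and 95.3, 74.8 and 126.9 in phr123, a log2 change of -3.13 (SE 0.300, adjusted p = 1.39e-06), and SWEET14 had 278.4, 238.0 and 334.5 in WT and 604.4, 623.9 and 676.6 in phr123, a log2 change of 1.17 (SE 0.174, adjusted p = 8.52e-05).

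Genes of cell growth and division were lower as groups. Of 47 cell wall genes 25 fell and 4 rose (median -0.74). All cellulose synthase genes but 1 fell, 8 of 9, with a median of -1.25. CESA1 had 9042.2, 11053.8 and 10514.6 in WT and 4064.3, 3749.8 and 3745.5 in phr123, a log2 change of -1.40 (SE 0.0920, adjusted p = 3.60e-08), and CESA6 had 4414.3, 4857.7 and 4463.8 in WT and 1583.7, 1219.0 and 1122.9 in phr123, a log2 change of -1.82 (SE 0.109, adjusted p = 1.64e-08). EXPA7, an expansin gene, had 3624.6, 4341.0 and 3944.5 in WT and 92.4, 57.4 and 119.2 in phr123, a log2 change of -5.53 (SE 0.200, adjusted p = 2.02e-10), with 1 phr123 array at or below the reporter level. BC1L9, of the COBRA-like family that acts on cellulose, went up, with 513.2, 711.7 and 626.7 in WT and 6353.2, 7061.2 and 6330.9 in phr123 and a log2 change of 3.43 (SE 0.152, adjusted p = 1.13e-09). Of 95 cell division genes 44 fell and 17 rose (median -0.34). Tubulin genes fell in 7 of 8 cases (median -1.46), and kinesin genes, which encode motors on the tubulin tracks, fell in 18 of 29 and rose in 2 (median -0.77). The cell division list holds kinesin genes too, so these counts overlap, and the list was not counted without them. TUB4 had 12105.3, 14423.5 and 13217.3 in WT and 2406.4, 2279.3 and 2190.7 in phr123, a log2 change of -2.53 (SE 0.101, adjusted p = 4.88e-10). KIN7K had 946.5, 1148.0 and 1101.8 in WT and 280.3, 290.8 and 283.6 in phr123, a log2 change of -1.90 (SE 0.117, adjusted p = 2.03e-08). KRP6, which encodes an inhibitor of cyclin-dependent kinases and so a brake on division, fell as well, with 2629.3, 2662.2 and 2521.8 in WT and 232.9, 305.1 and 277.4 in phr123 and a log2 change of -3.27 (SE 0.107, adjusted p = 6.81e-11); its second probe set had a smaller fall that did not pass.

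Hormone groups differed in direction. Of 48 auxin genes 26 fell and 4 rose (median -0.51). The Aux/IAA genes, which encode auxin-labile repressors that auxin itself induces, fell in 14 of 22 cases and rose in 1. Genes with the symbol ARF, used for auxin response factors, fell in 10 of 17 cases and rose in 1. The 1 that rose is named ARF without a number, and whether it is an auxin response factor was not checked. Its log2 change was 0.26 (adjusted p = 0.0259), and the call ended under several alternatives, such as without phr123 replicate 1 (0.0970). IAA1 had 9011.5, 8881.0 and 8587.8 in WT and 3519.9, 3784.0 and 3873.4 in phr123, a log2 change of -1.25 (SE 0.0736, adjusted p = 1.43e-08), and IAA21 had 8100.6, 8769.9 and 9058.1 in WT and 2427.8, 2994.8 and 2638.5 in phr123, a log2 change of -1.69 (SE 0.113, adjusted p = 4.51e-08). IAA14 had 399.5, 375.0 and 320.7 in WT and 16.3, 29.6 and 2.6 in phr123, at least 5.61-fold lower (adjusted p = 1.53e-05). GH3.2, whose product ties auxin to amino acids, rose, with 440.1, 463.0 and 468.5 in WT and 2506.0, 1502.1 and 1749.0 in phr123 and a log2 change of 2.04 (SE 0.189, adjusted p = 1.04e-06). Cytokinin genes rose in 13 of 26 cases and fell in 3. The response regulator gene RR9 had 636.9, 520.0 and 545.6 in WT and 2969.4, 2771.0 and 2703.1 in phr123, a log2 change of 2.31 (SE 0.144, adjusted p = 2.26e-08), and RR6 had 1384.6, 1260.2 and 1384.7 in WT and 3976.7, 3741.9 and 3953.1 in phr123, a log2 change of 1.54 (SE 0.0927, adjusted p = 1.69e-08). Both also rose in the single mutants. RR9 had 1.49 (adjusted p = 0.000121) in phr1 and 2.00 (adjusted p = 1.03e-05) in phr3, and its difference between phr123 and phr3 was 0.32 (adjusted p = 0.097). Of 15 gibberellin and brassinosteroid genes 5 fell and 2 rose, among them GID2, an F-box gene of gibberellin signalling, with 9918.7, 10023.4 and 9835.2 in WT and 3356.1, 4878.2 and 4435.6 in phr123 and a log2 change of -1.25 (SE 0.109, adjusted p = 5.50e-07).

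Homeobox factors fell in 16 of 31 cases and rose in 3 (median -0.62). HOX2 had 1164.2, 1448.9 and 1203.5 in WT and 187.2, 189.6 and 139.5 in phr123, a log2 change of -2.89 (SE 0.167, adjusted p = 1.14e-08). Roc2 and Roc6, of the class expressed in the epidermis, had log2 changes of -0.98 (SE 0.0959, adjusted p = 1.76e-06) and -1.01 (SE 0.107, adjusted p = 3.80e-06); the second probe set of Roc6 gave -0.55 and did not pass. Hd3a, which encodes the rice florigen, had 118.2, 140.6 and 101.9 in WT and 36.8, 13.0 and 6.6 in phr123, at least 1.84-fold lower (adjusted p = 0.00109), while of 13 clock and flowering genes 4 fell and 2 rose.

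Mineral and water transport genes held single large changes without a common direction. Of 46 genes for iron, zinc and manganese 12 rose and 12 fell, and of 37 for nitrogen, sulfur and potassium 10 rose and 6 fell. The potassium transporter gene HAK17 had 1437.2, 1488.4 and 1393.3 in WT and 13533.2, 13883.3 and 14024.9 in phr123, a log2 change of 3.26 (SE 0.153, adjusted p = 1.85e-09). HAK5 had 90.5, 91.9 and 9.0 in WT and 2016.7, 1802.0 and 1826.9 in phr123, a log2 change of 5.48 (SE 0.731, adjusted p = 3.29e-05) with 1 WT array at or below the reporter level, but its second probe set gave -0.02. The ammonium transporter gene AMT3-2 had 718.2, 692.8 and 641.8 in WT and 2906.1, 3916.7 and 3918.4 in phr123, a log2 change of 2.38 (SE 0.142, adjusted p = 1.59e-08). ZIP1, a zinc transporter gene, had 338.6, 486.8 and 499.5 in WT and 3636.1, 2484.8 and 2372.0 in phr123, a log2 change of 2.67 (SE 0.176, adjusted p = 3.67e-08). Of 20 water channel genes 9 fell and 4 rose. TIP2;2, a vacuolar channel gene among the brightest of the list, had 53870.6, 57621.3 and 55030.3 in WT and 21228.3, 20405.1 and 19805.2 in phr123, a log2 change of -1.44 (SE 0.0738, adjusted p = 3.94e-09), and PIP2;4 had 1837.1, 2571.6 and 1849.0 in WT and 4141.6, 4679.9 and 4885.2 in phr123, a log2 change of 1.15 (SE 0.119, adjusted p = 3.03e-06).

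Stress and signalling lists held both rises and falls. Of 78 genes on the abscisic acid list 25 rose and 17 fell. The list was matched by symbol and takes in genes for PP2C phosphatases, whose part in abscisic acid signalling was not checked. Of 56 tested genes with the symbol stem PP, which covers PP2C symbols, 17 rose and 13 fell. The list counts are thus not read as a result on abscisic acid. PP2C73 had 1517.6, 1390.5 and 1686.0 in WT and 154.3, 173.1 and 166.8 in phr123, a log2 change of -3.21 (SE 0.141, adjusted p = 1.06e-09), and LEA19, a late embryogenesis abundant protein gene, had 291.4, 148.3 and 115.9 in WT and 2101.7, 3101.6 and 3166.1 in phr123, a log2 change of 4.0 (SE 0.340, adjusted p = 4.30e-07). Of 71 calcium sensing genes 20 rose and 19 fell, among them CML27 with 1690.1, 1742.4 and 1727.5 in WT and 5383.4, 5764.4 and 6164.2 in phr123 and a log2 change of 1.74 (SE 0.114, adjusted p = 3.60e-08). Of 52 redox genes 23 rose and 13 fell. GRXC15, a glutaredoxin gene, had 637.0, 725.6 and 664.9 in WT and 4205.5, 3298.8 and 3683.2 in phr123, a log2 change of 2.46 (SE 0.175, adjusted p = 8.06e-08), and the peroxidase gene PRX74 had 2147.4, 2808.2 and 2010.7 in WT and 173.5, 82.7 and 102.0 in phr123, a log2 change of -4.34 (SE 0.227, adjusted p = 4.69e-09). Of 24 ribosomal protein genes 8 fell and 2 rose. Among DREB and ERF factors 1 of 10 rose and 2 fell, among MYB factors 3 of 10 rose and 3 fell, among MADS-box factors 1 of 13 rose and 3 fell, and among ethylene genes 2 of 9 rose and 0 fell. The single phosphatase and ribonuclease gene tested did not pass.

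The counts of heat shock genes moved with 1 array. Of 48 tested 14 rose and 7 fell, and without phr123 replicate 1 the counts were 13 and 12. The median of the 21 HSP genes was 0.11 and turned to -0.22 without that array. HSP23.2 had 183.3, 167.8 and 126.2 in WT and 3892.3, 481.6 and 522.8 in phr123, a log2 change of 2.66 (SE 0.640, adjusted p = 0.00398) and of 1.68 without it. HSP18.8 had 17342.6, 13132.4 and 17187.8 in WT and 7745.6, 8396.0 and 9276.7 in phr123, a log2 change of -0.90 (SE 0.110, adjusted p = 1.53e-05), and the heat stress factor gene HSFA4D had 601.2, 575.0 and 534.5 in WT and 3026.1, 2938.9 and 2874.3 in phr123, a log2 change of 2.37 (SE 0.150, adjusted p = 2.57e-08). For HSP18.8 and HSFA4D the 3 phr123 arrays lay close together.

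**Figure D3:**
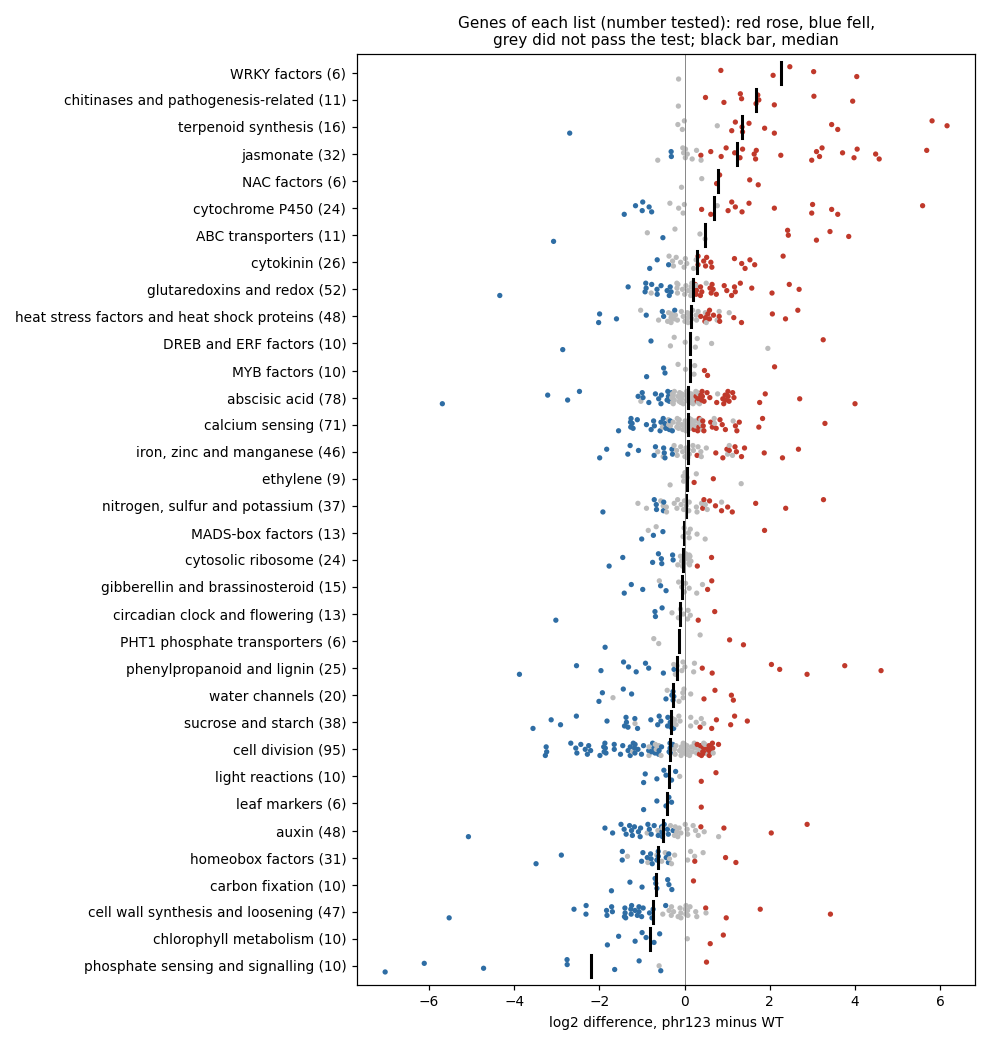
Log2 difference between phr123 and WT (x) for every tested gene of each list with at least 6 tested genes, 1 point a gene, ordered by the list median (black bar); red genes rose, blue genes fell and grey genes did not pass the test. The lists of WRKY factors, chitinases, terpenoids and jasmonate lie to the right and those of phosphate sensing, chlorophyll, cell wall and carbon fixation to the left.

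The lists differed in how many genes were called in the single mutants, where 0.934% (phr1) and 1.99% (phr3) of all probe sets were. Those shares count probe sets and the lists count genes, so the units differ. In phr123 against WT 41.5% of probe sets and 51.0% of genes were called, and no gene share was taken for the other comparisons. Of the 10 phosphate sensing genes 4 were called in phr1 and 1 in phr3. The 4 were PHR1, the gene mutated in phr1, with SPX1, SPX2 and SPX3, and the 1 was SPX3. Of 6 WRKY factors 0 were called in phr1 and 3 in phr3, of 6 NAC factors 0 and 2, and of 10 DREB and ERF factors 0 and 4. Of the 32 jasmonate genes 0 were called in phr1 and 5 in phr3, and phr123 differed from phr1 on 23 and from phr3 on 21. Of the 47 cell wall genes 2 were called in phr1 and 0 in phr3, while none of the 10 light reaction, 10 carbon fixation, 38 sugar and starch and 48 auxin genes was called in either. Of the 48 heat shock genes 2 were called in phr1 and 12 in phr3, and phr123 differed from phr3 on 31. Some single genes had values in phr3 near those in phr123. WRKY71 had 1220.9, 3045.5 and 1929.6 in phr3, a log2 change of 2.00 (adjusted p = 0.00346), and 2371.7, 2825.2 and 2862.9 in phr123, a log2 change of 2.47 (SE 0.316, adjusted p = 2.23e-05), and the 2 mutants differed by 0.47 (adjusted p = 0.263). NAC071 had a log2 change of 0.83 (adjusted p = 0.000195) in phr3 and 0.75 (SE 0.0905, adjusted p = 1.28e-05) in phr123, with a difference of -0.07 (adjusted p = 0.557), and HSFB2A, a heat stress factor gene, had -1.85 (adjusted p = 2.69e-05) in phr3 and -1.99 (SE 0.157, adjusted p = 2.06e-07) in phr123, with a difference of -0.14 (adjusted p = 0.519). DREB1B, a factor gene known for cold responses, was higher in phr3, with 457.4, 2195.6 and 1339.4, than in phr123, with 236.5, 234.3 and 326.4, against 7.9, 51.8 and 50.7 in WT, and the 2 mutants differed by -2.07 (adjusted p = 0.0226). A p that misses the threshold does not show that these levels are alike.

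Germin-like protein genes moved both ways, with 3 of 8 higher and 3 lower. GER5 had 34896.8, 38972.1 and 38345.1 in WT and 584.2, 467.2 and 438.1 in phr123, a 75.8-fold lower level with a log2 change of -6.24 (SE 0.109, adjusted p = 1.46e-13), and GER8 had 5677.2, 5966.5 and 5322.5 in WT and 530.8, 358.5 and 313.1 in phr123, a log2 change of -3.85 (SE 0.198, adjusted p = 4.02e-09). GER6 moved the other way, with 224.5, 226.4 and 228.6 in WT and 647.0, 1825.8 and 1702.8 in phr123 and a log2 change of 2.48 (SE 0.301, adjusted p = 1.40e-05). Among rises, E727A had 711.1, 923.8 and 1004.2 in WT and 29125.5, 31793.0 and 31284.9 in phr123, a log2 change of 5.14 (SE 0.387, adjusted p = 1.35e-07), and pinA had 1112.1, 1339.1 and 1417.1 in WT and 29033.1, 33365.3 and 32951.5 in phr123, a log2 change of 4.63 (SE 0.396, adjusted p = 4.56e-07). TDL1B had 592.8, 596.1 and 761.3 in WT and 14.5, 1.7 and 22.0 in phr123, at least 9.96-fold lower (adjusted p = 2.98e-06), and BZIP06, a bZIP factor gene, had 625.3, 825.8 and 743.6 in WT and 38.2, 40.8 and 1.8 in phr123, at least 11.2-fold lower (adjusted p = 7.05e-05). MIF3, of the mini zinc finger type, had 1035.3, 979.3 and 908.6 in WT and 90.8, 7.1 and 75.4 in phr123, a log2 change of -4.74 (SE 0.664, adjusted p = 5.18e-05), with 1 phr123 array at or below the reporter level. C3H2, a zinc finger gene, had 1552.6, 1139.2 and 1573.9 in WT and 761.8, 1.6 and 39.4 in phr123, where replicate 1 was the brightest phr123 array and the other 2 lay at or below the reporter level; the log2 change was -5.27 (SE 1.40, adjusted p = 0.00758) and -3.02 without phr123 replicate 2, and its second probe set gave -0.62. Where some arrays of a group lay at that level, the fitted log2 change is no exact size. RAA1 rose, with 72.4, 51.6 and 10.7 in WT and 1426.1, 1347.1 and 1664.4 in phr123 and a log2 change of 5.43 (SE 0.621, adjusted p = 8.04e-06), with 1 WT array at or below the reporter level.

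Of the 15469 genes tested, 13301 had no symbol, and many bright probe sets that changed belong to such loci. A mean of 2000 or more in the brighter group, a call and no overlap between groups were met by 2694 probe sets of 2542 such loci, 1356 higher and 1338 lower. Over all probe sets tested, 41.5% were called and 53.7% had no overlap. Bright probe sets of such loci that did not change were not counted, so 2694 is not read as an excess. The largest falls ended at or near the reporter level. LOC4327106 had 27886.7, 30829.9 and 30879.3 in WT and 214.7, 65.4 and 29.4 in phr123, a log2 change of -8.65 (SE 0.468, adjusted p = 6.38e-09), with 2 phr123 arrays at or below that level, and its other 2 probe sets among the largest falls gave -7.96 and -8.12. LOC4348119 had 21000.5, 22391.3 and 20921.6 in WT and 88.3, 58.6 and 49.7 in phr123, a log2 change of -8.40 (SE 0.162, adjusted p = 3.58e-13), again with 2 phr123 arrays at or below that level. LOC4327070 had 2787.5, 3992.8 and 3268.8 in WT and 12.8, 25.9 and 14.3 in phr123, at least 51.1-fold lower (adjusted p = 8.58e-10), and LOC4329121 had 4375.0, 5432.5 and 5630.5 in WT and 44.3, 2.8 and 62.1 in phr123, at least 78.9-fold lower (adjusted p = 1.60e-06). LOC4333690 had 8332.4, 10833.7 and 11029.6 in WT and 42.2, 50.0 and 30.2 in phr123, at least 154-fold lower (adjusted p = 5.53e-13), but its 4 other probe sets had log2 changes from -0.44 to 0.48, of which 2 were called lower, so a fall of that size was read by 1 probe set alone. In phr1 and phr3 none of these 5 loci passed the test, and LOC4327106 had 26119.1, 30553.1 and 27163.6 in phr1 and 16263.1, 22427.0 and 23765.1 in phr3.

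The largest rises included some of the brightest signals of the phr123 arrays. LOC4351887 had 2257.8, 4716.8 and 1483.5 in WT and 73057.0, 77991.9 and 73617.3 in phr123, a log2 change of 4.90 (SE 1.04, adjusted p = 0.00159). It varied in phr3 too, with 369.8, 5466.8 and 25884.6, and did not pass there (adjusted p = 0.897). LOC4325422 had 676.9, 847.7 and 532.7 in WT and 51144.5, 46115.9 and 41623.5 in phr123, a log2 change of 6.10 (SE 0.267, adjusted p = 1.05e-09), and went down in phr3, with 122.7, 267.0 and 293.7 and a log2 change of -1.66 (adjusted p = 0.00393). LOC4342317 showed the same pair of directions, with 486.6, 287.1 and 327.0 in WT and 18036.3, 13937.4 and 16558.5 in phr123, a log2 change of 5.49 (SE 0.316, adjusted p = 1.13e-08) and one of -1.68 (adjusted p = 0.0116) in phr3. LOC4335019 had 203.9, 235.1 and 279.4 in WT and 10451.6, 12446.9 and 11175.6 in phr123, a log2 change of 5.58 (SE 0.178, adjusted p = 5.39e-11), and LOC4337246 had 72.9, 107.5 and 86.7 in WT and 7884.0, 5539.1 and 6008.3 in phr123, a log2 change of 6.19 (SE 0.288, adjusted p = 1.76e-09). LOC4343826 had 149.1, 161.4 and 126.3 in WT and 10241.8, 4981.7 and 4919.1 in phr123, with replicate 1 the brightest, and a log2 change of 5.44 (SE 0.518, adjusted p = 1.32e-06). LOC4340325 was high in phr3 as well as in phr123. It had 51.3, 48.1 and 4.6 in WT, 4.2, 2.6 and 0.3 in phr1, 2237.6, 2317.2 and 1770.2 in phr3 and 2608.4, 2189.9 and 2172.4 in phr123, at least 42.0-fold higher in phr123 than in WT (adjusted p = 4.68e-05), and phr123 did not differ from phr3 by more than the spread (log2 difference 0.15, adjusted p = 0.921). Its second probe set gave -0.08 in phr123 against WT.

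A further 584 bright probe sets met the same terms with no gene in the annotation, 287 higher and 297 lower. Such probe sets made up 10215 of the 28597 tested, at any brightness. One of them had 40751.7, 33109.7 and 34497.8 in WT and 498.3, 486.2 and 323.0 in phr123, a log2 change of -6.39 (SE 0.191, adjusted p = 2.85e-11), and another had 145.8, 85.0 and 172.5 in WT and 28107.3, 14300.4 and 14899.4 in phr123, a log2 change of 7.14 (SE 0.757, adjusted p = 3.79e-06). These 2 were chosen after their values were seen.

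**Figure D4:**
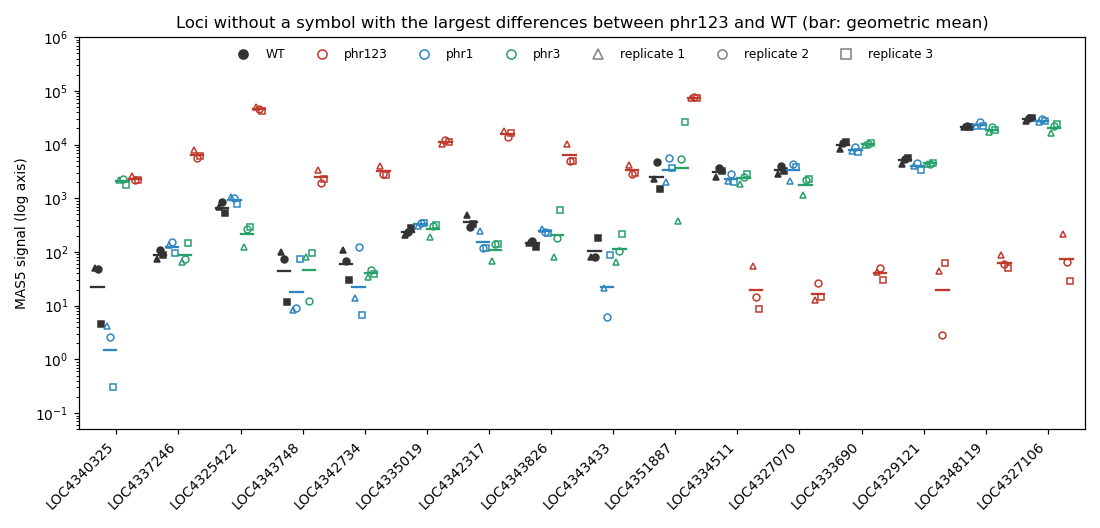
MAS5 signal (log axis) on all 12 arrays for the loci without a symbol that had the largest rises (left) and falls (right) between WT and phr123, with colours for genotypes, triangles, circles and squares for replicates 1, 2 and 3, and bars for geometric means. The phr123 arrays stand apart from WT at every locus shown; LOC4340325 is high in phr3 too, and LOC4351887 spreads widely over the phr3 arrays.

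Some of the changed genes are neighbours on the chromosome. By gene order in the RefSeq annotation, runs of at least 4 tested genes called at 2-fold or more in 1 direction, each at most 3 places from the next, were sought, and 5 runs were found. Over all probe sets, 6.83% were called at least 2-fold higher and 10.1% at least 2-fold lower. How many runs a random gene order would give was not tested, so the number of runs is not read as high or low. The first holds 5 loci side by side, LOC4348119 to LOC4348123, and all 5 fell; the last 4 of them were chosen after their values were seen. LOC4348120 had 37881.4, 37701.1 and 38261.0 in WT and 8529.2, 3847.1 and 3799.4 in phr123, a log2 change of -2.93 (SE 0.232, adjusted p = 2.22e-07). LOC4348121 had 30464.7, 31879.9 and 30280.5 in WT and 4085.8, 1397.7 and 1328.0 in phr123, a log2 change of -3.97 (SE 0.301, adjusted p = 1.46e-07). LOC4348122 and LOC4348123 had log2 changes of -4.63 (SE 0.382, adjusted p = 3.27e-07) and -3.19 (SE 0.252, adjusted p = 2.14e-07). On LOC4348120 to LOC4348123 the array labelled phr123 replicate 1 was the brightest of the phr123 arrays, yet below all WT arrays. Whether these neighbours share sequence that could cross-hybridise was not tested. The second run rose and holds LOC4325998, with 33004.6, 27244.6 and 28018.9 in WT and 67321.3, 73510.9 and 64938.9 in phr123 and a log2 change of 1.22 (SE 0.148, adjusted p = 1.35e-05), then LOC4326000, with 39.0, 24.3 and 71.2 in WT and 1602.8, 2100.0 and 1923.2 in phr123 and a log2 change of 5.52 (SE 1.10, adjusted p = 0.000998), pinA and E727A. In the second run pinA and E727A lie side by side and had parallel signals across arrays. In phr3, for instance, pinA had 904.0, 2545.8 and 4438.0 and E727A had 652.9, 1615.4 and 3011.4. Cross-hybridisation between these genes was not tested, so they may not be separate rises. The third run, of LOC4325301, LOC4326918, LOC4326919 and LOC4326920, rose as well, from WT means of 56.5 to 146.6 to phr123 means of 326 to 458, and was found by the search for runs alone.

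Of the 5 runs, 2 lie in the known gene clusters of rice diterpenoid synthesis. In the first cluster, of 10 genes from CYP76M5 to CYP76M6, 9 were tested, and CYP76M5, CYP76M8, LOC4329723, KSL7, CYP71Z7 and CPS2 rose. The values of KSL7 and CYP71Z7 are given with the terpenoid genes, and CYP76M5, CYP76M8, LOC4329723 and CPS2 had log2 changes of 2.11 (SE 0.529, adjusted p = 0.00522), 1.11 (SE 0.292, adjusted p = 0.0071), 2.61 (SE 0.277, adjusted p = 3.80e-06) and 1.88 (SE 0.489, adjusted p = 0.00658). CYP71Z6, between KSL7 and CYP71Z7, fell, with a log2 change of -0.83 (SE 0.253, adjusted p = 0.0166), and KSL5 gave -0.05 (adjusted p = 0.945). CYP76M6 was read by 2 probe sets, and the brighter over the 12 arrays gave 0.77 (adjusted p = 0.0546) while the other had 20.1, 11.6 and 20.9 in WT and 1192.2, 884.2 and 1076.2 in phr123, at least 18.9-fold higher (adjusted p = 1.40e-06). The second cluster has 6 genes from CPS4 to CYP99A2, of which the 4 tested all rose. CPS4 and MAS here, and KSL7 in the first cluster, were tested only because phr123 was bright. The counts of tested genes that rose are thus no independent sign of a rise across the clusters. CYP99A3 had a log2 change of 1.19 (SE 0.289, adjusted p = 0.00418) and CYP99A2 had 60.6, 110.8 and 54.8 in WT and 737.4, 993.2 and 890.5 in phr123, a log2 change of 3.60 (SE 0.537, adjusted p = 9.16e-05), with 1 WT array at or below the reporter level. P450 genes within a cluster are close relatives, and cross-hybridisation among them was not tested. None of the 13 genes tested in these clusters was called in phr1 or phr3 (adjusted p from 0.114 to 0.999 over both mutants).

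**Figure D5:**
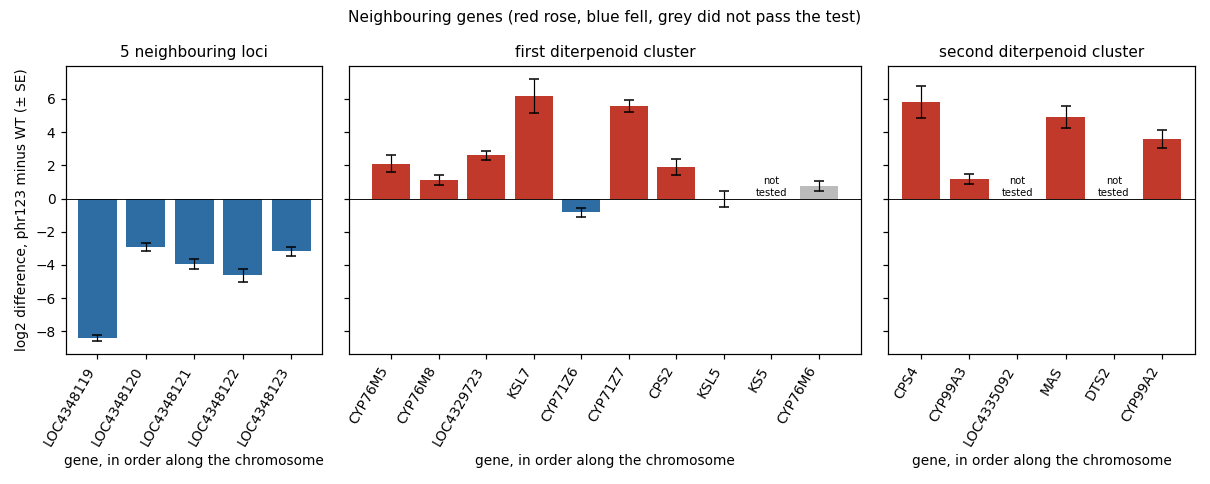
Log2 difference between phr123 and WT (bars, with SE) for genes in their order along the chromosome, in the run of 5 neighbouring loci (left) and the first and second diterpenoid clusters (middle, right); red genes rose, blue genes fell and grey genes did not pass the test. The bars of KSL7, CPS4 and MAS are fitted values against WT signals at or below the reporter level. All 5 loci on the left fell, and in the clusters CYP71Z6 fell among genes that rose.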

How the data were processed

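RNA from phosphate-starved rice shoots was measured on 12 one-colour Affymetrix rice genome arrays, 3 for each of 4 genotypes grouped by their titles. The deposited intensity values are MAS5 signals on a linear scale, per the submitters' processing notes, and the trimmed mean was 500.1 on each of the 12 arrays. The labels state biological repeats without saying how plants were pooled, so p-values rest on the spread among these 12 arrays. The number of arrays limits the precision; MAS5 signals carry no read depth.

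Here 123 AFFX and 64 RPTR control probe sets were left out, 8 zero values were set to 0.1, and log2 signals were taken. Of 57194 probe sets, the 28597 with a mean at or above the median (a signal of 49.4) were tested with limma 3.58.1 (R 4.3.3, lmFit and eBayes with a trend, 12 arrays, 8 residual degrees of freedom), with Benjamini-Hochberg adjustment and a threshold of 0.05. The filter used the mean over all 12 arrays, so a probe set dim in the other genotypes could be tested through phr123 alone. Counts of tested genes, and the runs of neighbouring genes, can hold such rises. The limma code was first tested on simulated data. SE is the moderated standard error of the log2 change.

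The reporter level is the 95th percentile of the RPTR controls on an array, leaving out 3 that were above it in phr123. Where a whole group lay at or below it, folds are given as "at least", with the dim group set at that level or its own signal, whichever was higher. The level was 54.8, 69.2 and 71.9 on phr123 arrays 1 to 3, and 95.7, 98.7 and 114.8 with all RPTR controls kept. For WT it was 51.3, 51.4 and 63.7, and 59.9, 51.0 and 63.7 with all kept. With all kept, the "at least" folds of falls would be smaller, and more phr123 signals could count as at or below the level. Genes were named through the platform annotation and RefSeq (assembly ASM3414082v1), and no sequence or coordinate is printed. Gene lists were matched by symbol, 31 mismatches were removed by name, and a gene was read by its brightest probe set. The genes named were the measured PHR, phosphate sensing, PHT1 and membrane lipid genes, the 15 largest rises and falls with a mean of 500 or more, the 10 largest among loci without a symbol at 2000 or more, up to 4 called members of each list with the smallest adjusted p, and the largest rise and fall of a family; not all are printed. Members, lists and rules were chosen with earlier results of these data known. Replicate numbers did not pair the arrays, since deviations of same-numbered WT and phr123 arrays correlated at 0.00405 to 0.00952, under 0.1. The alternatives were quantile normalization, centring on medians, other filters, a pseudocount of 16, other eBayes settings, the 6 arrays alone, a replicate block, leaving out each array, and the 6 arrays alone without phr123 replicate 1.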

Additional observations from a re-analysis of the deposited data

Results flagged for a closer look

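Among the control probe sets for reporter genes, 3 that belong to the same reporter gene were above the reporter level in phr123, a signal outside the measured rice genes. The mean signal in phr123 was 421.6 for the first, with 373.5, 432.4 and 458.8 against 119.0, 33.7 and 13.7 in WT. For the second it was 124.5, with 67.7, 108.3 and 197.5 against 20.3, 5.8 and 2.4 in WT. For the third it was 180.8, with 126.0, 224.7 and 191.7 against 3.7, 28.8 and 59.7 in WT. All 3 phr123 arrays lay above all 3 WT arrays for each probe set, and each exact two-sided permutation p was 0.1, the smallest that 3 against 3 arrays allow. The means were 58.5, 4.33 and 18.3 in phr1 and 55.9, 21.0 and 38.8 in phr3. The source of this signal was not tested.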

How the results depend on the processing

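The count of probe sets called between phr123 and WT was 11882 and ranged from 10201 with arrays centred on their medians (5700 higher and 4501 lower) to 12249 without phr1 replicate 1; leaving out 1 array each gave 10415 to 12249, and 10865 without phr123 replicate 1. With a replicate block 11600 were called, 5708 higher and 5892 lower; the arrays share only a number. Of 242 named probe sets called, 223 kept the call under all 22 alternatives. Of 80 list and family medians, 18 changed sign under at least 1 alternative. The PHT1 median of -0.12 became 0.0542 without phr123 replicate 2, 0.1298 without WT replicate 2 and 0.2316 without WT replicate 3, with a range of -0.4375 to 0.2316 over the arrays left out. The DREB and ERF median of 0.13 became -0.039 without WT replicate 3 (range -0.039 to 0.1886), and the YSL family median of 0.38 became -0.0082 without WT replicate 2 (range -0.0082 to 0.5195). Without phr123 replicate 1, with all arrays or the 6 alone, the CPK family median of 0.12 became -0.0226 (range to 0.2092) and the HSP family median of 0.11 became -0.2236 (range to 0.3089). With arrays centred on their medians, all log2 changes rose by 0.096, and the medians of MADS-box, clock, gibberellin and ribosomal genes turned from below to above 0. Why these values moved was not tested. Signals at or below the reporter level limit what can be said of falls to that level.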
